A study of Capra hircus with 6 samples.

Results

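Genes of the secretory pathway and of vesicle traffic were examined in lactating goat mammary gland: the proteins that bring a new milk protein into the endoplasmic reticulum (ER), carry it in coated vesicles to the Golgi, and sort and fuse the vesicles that follow. Members were chosen by gene symbol alone, and 80 probes for 77 genes were found among the 8379 probes of the array, which named 6535 genes by a single symbol. All 77 symbols were also present in the goat gene table. The members were divided by role into ER entry (16 genes), the COPII coat (11), the COPI coat with the ARF GTPases (10), cargo receptors (8), SNAREs (8) and Rab GTPases (22), with SEC14L1 and SEC23IP left outside these groups.

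Low goats carried the Low genotype at CSN1S1, the gene of the milk protein alpha-s1-casein, and High goats carried the High genotype. All 6 goats were in lactation and on a control diet offered without restriction, and the genotype labels are not resolved into single alleles. RNA of whole gland from 1 Low and 1 High goat was hybridised together, in 3 pairs of goats with 2 arrays each and the dyes Cy5 and Cy3 exchanged between the arrays of a pair, so the number of replicates was 3 pairs. The probes had been designed for cattle. In whole gland, fewer cells of a type and less RNA per cell cannot be told apart.

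A secreted protein is recognised at the ribosome by the signal recognition particle, passes through the SEC61 channel, loses its signal peptide, and may receive sugar chains from the oligosaccharyltransferase. COPII-coated vesicles take it out of the ER, COPI-coated vesicles return escaped ER proteins and Golgi enzymes, Rab GTPases mark each membrane, and SNAREs fuse it with the next. The lactating mammary epithelial cell sends caseins along this route in very large amounts. In goats that lack alpha-s1-casein, slow exit of the other caseins from the ER has been described, which makes the RNA levels of this machinery a question that the genotype comparison addresses.

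CSN1S1 itself checked the labels. Its log2 ratio of Low over High was -2.63, -2.20 and -2.44 in the 3 pairs, a mean of -2.43 ± 0.22 (SD, n = 3 pairs; limma, Benjamini-Hochberg adjusted p = 5.14e-04), and it was below 0 on all 6 arrays. Of the markers of luminal epithelium, 8 of the 9 genes on the array were above background often enough to be tested. KRT18, a keratin of that cell type, was above background on 6 Low and 5 High arrays, and the exception, its partner keratin KRT8, on 2 Low and 3 High arrays. These counts cannot check the tissue label, since 10 of 11 leukocyte and 6 of 7 adipocyte markers were tested too. Over the whole array, 6378 of 8379 probes were tested. Between 74.1% and 82.1% of probe spots on each array carried no flag, and no member spot was saturated. On all 6 arrays the Cy3 channel had the higher median background. With Low in Cy5, 56, 55 and 62 of the 80 members were above background in Low, against 39, 48 and 49 in High. With Low in Cy3, 49, 46 and 43 were above background in Low, against 58, 61 and 57 in High.

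Of the 80 member probes, 57 (55 genes) were above background in the same genotype in every pair, on at least 1 array of the pair, and were tested. A probe was above background where its mean signal exceeded the local background mean by more than 2 background SDs. Both genotypes met this for 50 probes, Low alone for 2 and High alone for 5, and 33 were above background in both genotypes on all 6 arrays. The 23 probes left out included 13 that were above background on no array. Among those 13 were RAB1A, which acts between ER and Golgi, the recycling endosome gene RAB11A, the COPII genes SEC24D and SEC31A, and the SNARE genes SNAP25, STX7, STX8 and STX18. For these genes nothing can be said about a difference between genotypes.

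**Figure D1:**
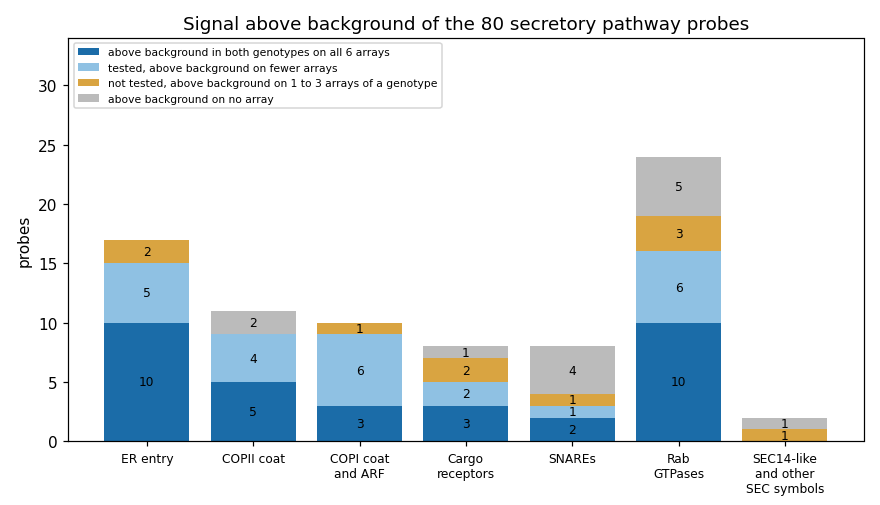
Number of member probes (vertical axis) in each role group, divided by signal above background. Of 17 ER entry probes 10 were above background in both genotypes on all 6 arrays, as were 10 of 24 Rab probes, and 4 of 8 SNARE probes were above background on no array.

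No member passed the threshold of an adjusted p of 0.05 in either direction, against 7 of 6378 probes on the whole array (0.110%). The lowest adjusted p of a member was 0.885. Without adjustment, 1 of 57 members (1.75%) had a p under 0.05, whereas 342 of 6378 probes did (5.36%). The mean ratios of the members ran from -0.11 for SRP68 to 0.18 for COPB1. Of the 57, 56 (98.2%) lay within a 1.1-fold difference in either direction, against 94.4% of all probes tested.

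The intervals bound how large an unseen difference could be on this scale. For 52 of 57 members (91.2%) the 95% interval lay inside a 1.2-fold difference in either direction, against 88.9% of all probes tested, and for all 57 it lay inside a 1.5-fold difference. The 5 with wider intervals were COPB1, SEC24C, SRP9, TMED10 and 1 probe of RAB17. An interval inside a 1.1-fold difference was reached by 16 members (28.1%), against 24.3% of all probes. The median standard error was 0.0487 in members and 0.0490 in all probes, and the median size of the ratio was 0.0415 and 0.0408. Ratios of dim probes were drawn towards 0 by the constant of 50 added to every signal. With plain subtraction of the background in its place, member ratios ran from -0.19 (SRP68) to 0.48 (COPB1), again with none past the threshold. The 3 pairs shared 1 sign in 12 of 57 members (21.1%), against 26.8% of all probes, and no member had 1 sign on all 6 arrays, against 150 probes (2.35%) of the whole array. With 3 pairs, the exact sign-flip permutation test of a single gene cannot give a two-sided p below 0.25.

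**Figure D2:**
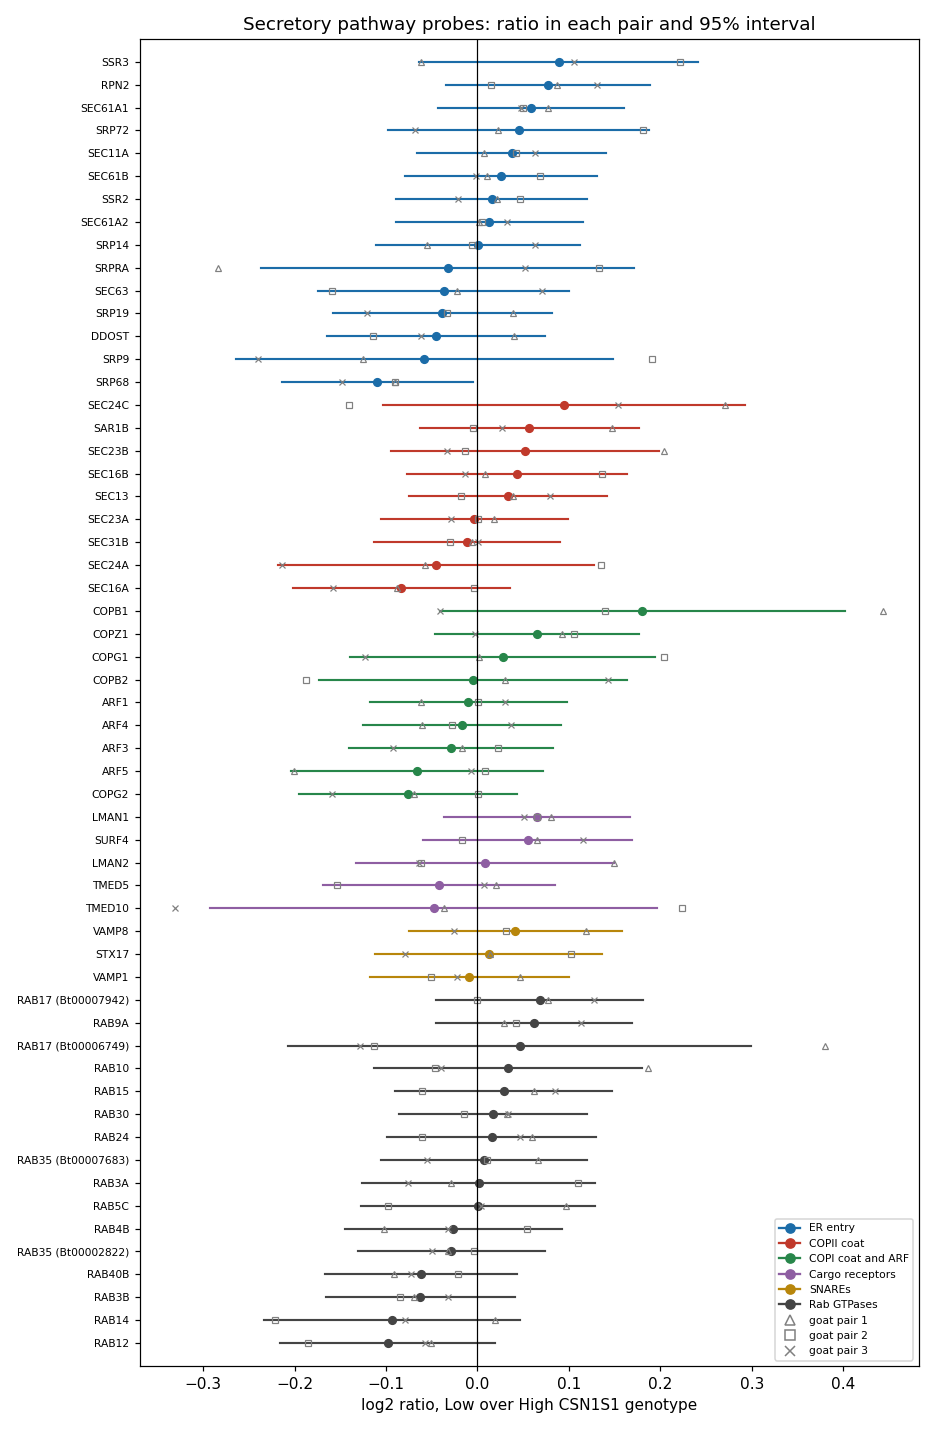
Log2 ratio of Low over High (horizontal axis) for the 57 tested member probes, ordered within each role group; filled circles are means, lines are 95% intervals from limma, and grey symbols are the 3 goat pairs. Every interval except that of SRP68 includes 0, and COPB1 has the highest mean, at 0.18, with its pair 1 at 0.44.

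ER entry was the most completely measured group, with 15 of its 16 genes tested. SRP68, a core protein of the signal recognition particle, had the lowest p of all members. Its ratio was -0.090, -0.090 and -0.15 in the 3 pairs, a mean of -0.11 ± 0.034 (SD, n = 3 pairs), with an interval from -0.21 to -0.0050, an unadjusted p of 0.043 and an adjusted p of 0.885 in limma. The agreement between pairs did not extend to the arrays within them. Where Low carried Cy5 the mean was 0.16, and where Low carried Cy3 it was -0.38. The other tested proteins of the particle and its receptor were on both sides of 0. SRP19, which helps assemble the particle, was at -0.038 ± 0.080. SRP14, of the domain that pauses translation, was at 0.00056 ± 0.060, and SRP9, its partner in that domain, was at -0.058 ± 0.22. SRP72, which binds SRP68, had 2 probes: the tested one was at 0.045 ± 0.13, and the second was above background on 1 Low and 0 High arrays. SRPRA, the receptor's alpha subunit, was at -0.033 ± 0.22.

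The channel and its partners lay mostly just above 0. SEC61A1, the pore-forming subunit of the channel, had ratios of 0.077, 0.050 and 0.048 and a mean of 0.058 ± 0.016, and its second form SEC61A2 was at 0.013 ± 0.017. Both had pair values of 1 sign and a narrow spread, and their adjusted p-values were 0.885 and 0.965. SEC61B, the beta subunit, was at 0.026 ± 0.038, and SEC63, which links the channel to the chaperone BiP, was at -0.037 ± 0.12. SSR3, a subunit of the translocon-associated protein complex TRAP, was at 0.089 ± 0.14, with -0.062 in pair 1 against 0.22 and 0.11 in pairs 2 and 3. RPN2, a subunit of the oligosaccharyltransferase, was at 0.087, 0.015 and 0.13 in the 3 pairs, a mean of 0.077 ± 0.059 (adjusted p = 0.885). DDOST, a subunit of the same enzyme, lay on the other side of 0, at -0.045 ± 0.078. SEC11A, the catalytic subunit of signal peptidase, was at 0.037 ± 0.028.

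The COPII coat, which forms vesicles leaving the ER, had 9 of 11 genes tested. SEC16A, the scaffold of the ER exit site, was at -0.088, -0.0035 and -0.16 in the 3 pairs, a mean of -0.083 ± 0.077 (adjusted p = 0.885), and was below 0 on 5 of 6 arrays. SAR1B, the GTPase that starts coat assembly, was at 0.056 ± 0.080. SEC24C, a cargo-binding subunit, was at 0.095 ± 0.21, with pair values of 0.27, -0.14 and 0.15. Its spread between pairs was larger than its mean. The SEC23 proteins, the partners of SEC24 in the inner coat, were at -0.0033 ± 0.024 (SEC23A) and 0.052 ± 0.13 (SEC23B). SEC13 and SEC31B of the outer coat were at 0.033 ± 0.049 and -0.012 ± 0.016.

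Among the COPI genes, COPB1, the beta subunit, had the highest ratio of all members. It was at 0.44, 0.14 and -0.041 in the 3 pairs, a mean of 0.18 ± 0.25 (SD, n = 3 pairs; adjusted p = 0.885). This mean rested on a single array: 0.83 on the pair 1 array whose Low RNA carried Cy3, against 0.058 on the other array of that pair. Without pair 1 the ratio was 0.049. The probe was above background on 3 Low and 3 High arrays, and 1 array gave no value. COPZ1, the zeta subunit, was at 0.065 ± 0.059, COPG2, a gamma subunit, was at -0.076 ± 0.080, and COPG1, the other gamma subunit, was at 0.027 ± 0.17. COPB2, the beta-prime subunit, was at -0.0051 ± 0.17. All 4 ARF GTPases tested, which recruit the coat to the membrane, had means below 0, from -0.066 for ARF5 to -0.010 for ARF1. None of the 4 had 1 sign in all 3 pairs, and each had opposite signs in the 2 dye orientations. ARF4 was above background on only 2 Low and 3 High arrays.

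ARCN1, the delta subunit of the COPI coat, stood apart among the members that were not tested, and it was singled out after its values had been seen. Its probe (Bt00001132) was above background on 0 of 6 arrays in Low and on 3 of 6 arrays in High. In pair 3 its signal minus background was 35.1 and 19.3 scanner units in Low, against 210 and 135 in High. In pair 1 it was 19.6 in Low, against 162 in High, where Low carried Cy3. On the other array of pair 1 it was 9.30 in Low, against 0.313 in High. In pair 2 it was 6.02 and 0.199 in Low, against 22.1 and 23.2 in High. High was thus clearly above Low on both arrays of pair 3 and on 1 array of pair 1, and the RNA of the pair 1 High goat gave signal on only 1 of its arrays. Where signal was present, the duplicate spots of the probe lay close together: 166 and 159 in High on the bright pair 1 array, and 206 and 214 in High on the brighter pair 3 array. As Low was never above background, a difference has at most a bound. In pair 3, the only pair with High above background on both arrays, High was at least 2.31-fold higher than Low. In pair 1 the same calculation gave 1.38-fold, which is not a bound, as High was above background on only 1 array. In pair 2 neither genotype was above background, and no bound could be given. The means of normalised log2 signal over the 3 pairs were 6.57 in Low and 7.27 in High. Averaged over the 3 pairs the same calculation gave 1.44-fold, which is not the plain difference between these means. This average takes in pair 2 and the pair 1 array on which High was not above background, so it is not a bound. It rested mainly on pair 3, and without that pair it was 1.14-fold. The probe was not among those tested. In a fit over all 8379 probes with no filter and no spot removed, chosen after seeing the data, it did not pass the threshold (adjusted p = 0.777). The same limma fit of a single orientation, where the dye does not cancel, gave an adjusted p of 0.028 with Low in Cy3. With Low in Cy5 it gave 0.176. Since the signal of the probe was mostly at background, no ratio from these fits is given.

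**Figure D3:**
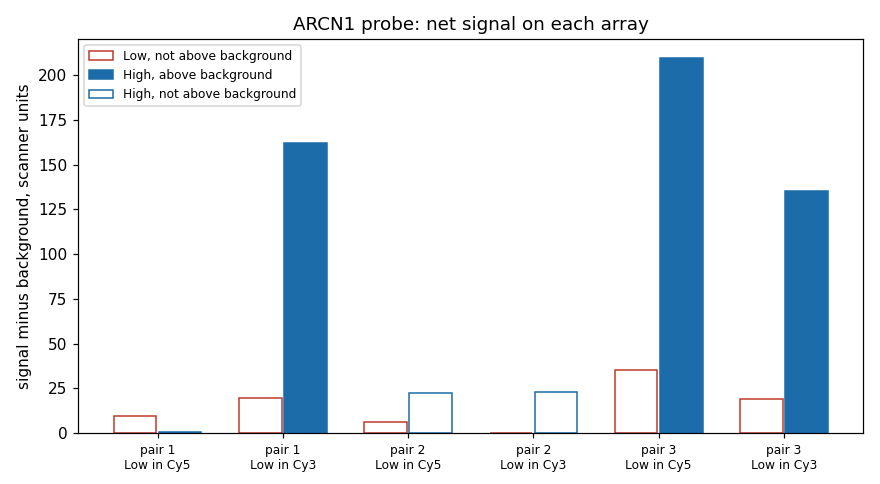
Signal minus local background of the ARCN1 probe (vertical axis, scanner units) on each of the 6 arrays, with Low in red at the left and High in blue at the right; filled bars are above background. The filled bars are the High channel of 1 array of pair 1 (162, Low in Cy3) and of both arrays of pair 3 (210 and 135), while pair 2 and the other array of pair 1 stay below 25 scanner units in both genotypes.

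Cargo receptors, which pick proteins for transport, had 5 of 8 genes tested. LMAN1, a lectin that carries glycoproteins out of the ER, was at 0.080, 0.065 and 0.050 in the 3 pairs, a mean of 0.065 ± 0.015 (adjusted p = 0.885). SURF4, a receptor for soluble cargo, was at 0.055 ± 0.067 and LMAN2, a lectin of the early secretory pathway, at 0.0083 ± 0.12. TMED10 and TMED5, both of the p24 family, were at -0.048 ± 0.28 and -0.042 ± 0.096. TMED10 had 0.22 in pair 2 and -0.33 in pair 3, one of the widest spreads among the members. Of the SNAREs, only VAMP8, known from regulated secretion, STX17, known from autophagosome fusion, and VAMP1 were tested. Their ratios were 0.042 ± 0.073, 0.012 ± 0.091 and -0.0089 ± 0.050.

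Of 22 Rab genes 14 were tested, with 16 probes. RAB12, a Rab of recycling endosomes, had the lowest ratio: -0.051, -0.19 and -0.058 in the 3 pairs, a mean of -0.098 ± 0.076 (adjusted p = 0.885). RAB14, which acts between Golgi and endosomes, was at -0.094 ± 0.12 and RAB3B, a Rab of exocytosis, at -0.063 ± 0.027. RAB9A, of the route from late endosome to Golgi, was at 0.061 ± 0.045. The 2 probes of RAB17, a Rab of epithelial cells, were at 0.068 ± 0.064 and 0.046 ± 0.29. The 2 probes of RAB35, which acts in endocytic recycling, were on opposite sides of 0, at -0.029 ± 0.023 and 0.0071 ± 0.061. In both genes the probes differed by less than the spread between pairs of the more variable probe.

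The role groups were then compared by the median ratio over their genes. It was 0.013 for ER entry (9 genes above and 6 below 0), 0.033 for COPII (5 and 4), -0.010 for COPI with ARF (3 and 6), 0.0083 for cargo receptors (3 and 2), 0.012 for SNAREs (2 and 1) and 0.0043 for Rabs (9 and 5). Over all probes tested the median was 0.0014. ER entry was the only one of the 6 groups whose median was above 0 in all 3 pairs, at 0.0070, 0.042 and 0.033. Within ER entry, the median was -0.036 for the recognition particle and its receptor (2 genes above and 4 below 0), 0.021 for the translocon and TRAP (5 and 1), and 0.037 for signal peptidase with the oligosaccharyltransferase (2 and 1). Of the 6 differences between ER entry, COPII, COPI with ARF, and Rabs, only ER entry minus COPI with ARF had 1 sign in all pairs, at 0.023, 0.033 and 0.040. These differences are a few hundredths of a log2 unit, and no test was made over the members of a group. The order of the groups also moved with the processing. The ER entry median was -0.016 over the members above background in both genotypes on all 6 arrays, and -0.012 with loess fitted in each sub-grid. The sign of ER entry minus COPI with ARF turned with the dye orientation. With Low in Cy5 alone the medians were 0.056 for ER entry and -0.11 for COPI with ARF. With Low in Cy3 alone they were -0.021 and 0.026.

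**Figure D4:**
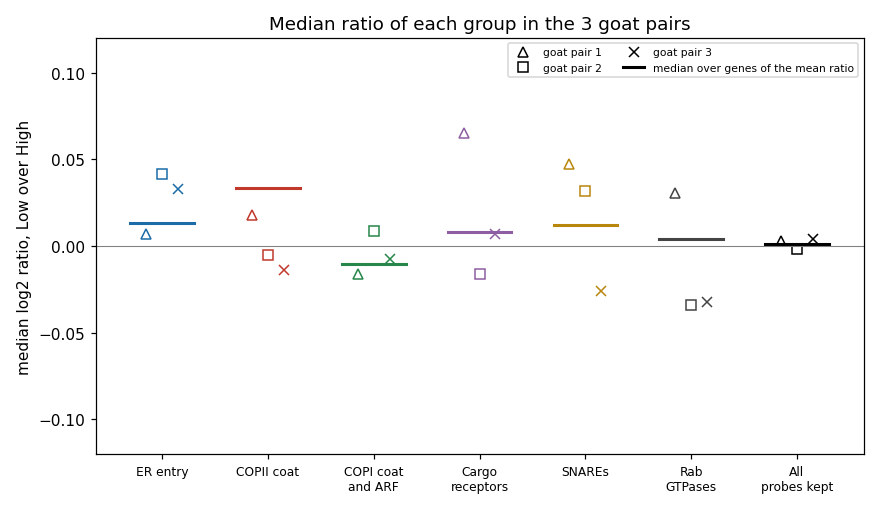
Median log2 ratio of Low over High (vertical axis) for each role group and for all probes tested; open symbols are the 3 goat pairs and bars are medians over genes of the mean ratio. The group medians by pair lie between -0.034 and 0.065, and only ER entry has all 3 pairs above 0.

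For most members the dye moved the measured ratio by more than the genotype did. The dye effect (Cy5 over Cy3, from the difference between the arrays of a pair) could be computed for 50 members, an analysis chosen after seeing the data. It passed the threshold in 13 of them, 5 with Cy5 higher and 8 with Cy3 higher, against 1995 of 5717 probes on the whole array (34.9%). Its median size was 0.094, against 0.038 for the genotype ratio of the same probes, and it was the larger in 40 of 50 members (80%), as in 76.1% of all probes. SRP9 had the largest of these effects, at -0.48 (adjusted p = 9.12e-04): its ratio of Low over High was -0.54 where Low carried Cy5 and 0.43 where it carried Cy3. In the same order, SEC23A gave 0.30 and -0.31, and RAB3A gave -0.35 and 0.35. Averaged over both orientations, SEC23A was at -0.0033 and RAB3A at 0.0014.

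A single dye orientation therefore gave calls that the averaged arrays did not. On the 3 arrays with Low in Cy5, 7 of 51 members passed the threshold, against 16.7% of all probes: SRP9, COPG1, RAB3A, ARF3 and RAB4B were lower in Low, and SEC24C and SEC23A were higher. On the 3 arrays with Low in Cy3, 2 of 55 members passed it, RAB3A higher and SEC23A lower in Low, against 8.16% of all probes. Both had the opposite sign in the other orientation. COPG1 gave -0.32 where Low carried Cy5, 0.38 where it carried Cy3, and 0.027 when averaged.

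**Figure D5:**
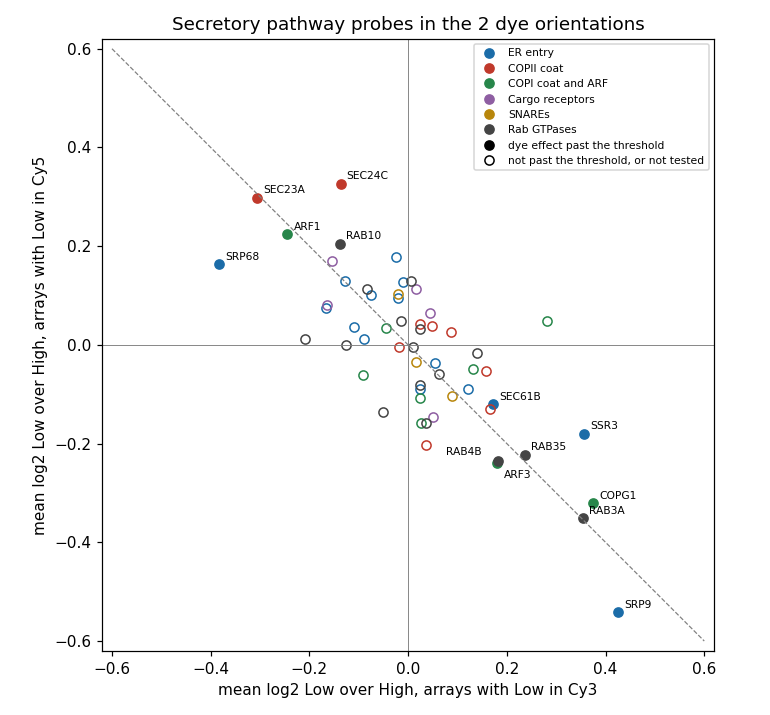
Mean log2 ratio of Low over High on the arrays with Low in Cy5 (vertical axis) against the arrays with Low in Cy3 (horizontal axis) for each tested member probe with values in both; filled points have a dye effect past the threshold. The dashed line marks equal and opposite ratios, and all 13 filled points, among them SRP9, SEC23A and RAB3A, have ratios of opposite sign in the 2 orientations.

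Genes around the members, taken from 5 lists chosen with earlier results of these data known, had no gene past the threshold in either direction. Other parts of the oligosaccharyltransferase and translocon had 6 genes measured and a median ratio of 0.020, with 4 genes above and 2 below 0. Tethers, golgins and TRAPP subunits, which catch arriving vesicles, had 18 and a median of 0.016, and regulators of ARF and Rab proteins had 16 and -0.0016. SNARE partners had 13 and -0.025, and clathrin with its adaptors had 15 and -0.0037. STXBP5, or tomosyn, which binds syntaxins and is known to restrain vesicle fusion, had the lowest p of the 5 lists. Its ratio was -0.27, -0.29 and -0.42 in the 3 pairs, a mean of -0.32 ± 0.086 (SD, n = 3 pairs; unadjusted p = 5.96e-04, adjusted p = 0.158). The orientations differed: -0.72 where Low carried Cy5, 0.069 where it carried Cy3. In a fit of the 6 arrays with a dye term and the pair as a random block its adjusted p was 0.020. With a correlation of 0.016 within pairs, that fit counted the 6 arrays almost as separate replicates, whereas the replicates were 3 pairs. Over the whole array it called 33 probes, against 7 with the arrays of a pair averaged. TRAPPC4, of the TRAPP tether, was at -0.19 ± 0.16, and AP2M1, of the plasma membrane clathrin adaptor, at 0.18 ± 0.15 (adjusted p = 0.885 for both). STT3B, a catalytic subunit of the oligosaccharyltransferase, was at 0.077 ± 0.084, and ARL6IP5, a membrane protein of the ER, at 0.14 ± 0.16. Over the 5 lists, 3 of the genes measured had 1 sign on all 6 arrays, against 150 of 6378 probes (2.35%) on the whole array. None of the 3 passed the threshold. BNIP1, a SNARE of traffic back to the ER, was at 0.17 ± 0.061 (adjusted p = 0.720), AP1S1, of the Golgi clathrin adaptor, at 0.093 ± 0.031, and CLTA, a clathrin light chain, at -0.082 ± 0.041 (adjusted p = 0.885 for both). BNIP1 and CLTA were named after their values were seen.

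Markers of the cell types that whole gland holds were measured beside these genes, and none passed the threshold. Luminal epithelium, the milk-secreting cell type, had 7 of 8 genes above 0 and a median ratio of 0.038, with KRT18 at 0.13 ± 0.038 (adjusted p = 0.885). Its summed net signal ran from 3601 to 8433 scanner units in Low, against 3178 to 6718 in High. Of the markers of plasma and B cells, which also secrete heavily, 3 were measured, 2 of them below 0, with a median ratio of -0.19. By pair the median was 0.00063, -0.12 and -0.17. CD79A was at -0.19 ± 0.083 (adjusted p = 0.705) and MZB1 at 0.0052 ± 0.016. JCHAIN, the joining chain of secreted antibodies, was at 0.035, -0.17 and -1.15 in the 3 pairs, a mean of -0.43 ± 0.63 (adjusted p = 0.885), and was above background on 1 Low and 4 High arrays. It thus passed the filter through High alone, the genotype in which it was higher, and the median over the 3 markers includes it. The summed net signal of the 3, most of it from MZB1, ran from 1994 to 7537 in Low, against 1789 to 8589 in High. All 5 markers of myoepithelium and smooth muscle were above 0, with KRT17 at 0.23 ± 0.086 (adjusted p = 0.491). All 4 endothelial markers were above 0 too, with a median of 0.056. Their medians by pair were 0.0055, 0.0026 and 0.23, so the rise lay mostly in pair 3. The medians were -0.0013 for 10 leukocyte, -0.023 for 4 fibroblast and -0.030 for 6 adipocyte markers. The part of cell makeup in the members' ratios was not tested.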

How the data were processed

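The deposited scanner files gave, per the file headers and labels, the mean intensity of each spot and of its local background (ImaGene 6.0), with a background SD as a signal in the same units and a quality flag stored as a score. The deposited series values were log2 ratios, with a normalization not given in the sources used here. They followed the scanner ratios over bright spots, with r from 0.971 to 0.996 and slopes from 0.953 to 0.991, which settled scale and direction, while their centring stays unknown. Their column medians were 0.0205, -0.0135, 0.0186, -0.0076, 0.0038 and -0.0094.

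Here, means were background-corrected by normexp (offset 50) and normalised per array by loess (limma 3.58.1, R 4.3.3), with control spots at weight 0 and spots flagged manual or empty left out. The dye labels set each ratio as Low over High, and the 2 spots of a probe and then the 2 arrays of a pair were averaged. Each probe above background in 1 genotype on at least 1 array of each pair (6378 of 8379) was tested against 0 with lmFit and eBayes, with Benjamini-Hochberg adjustment over all of them at 0.05. The pair was the replicate. The number of arrays limits the precision. The script was tested on simulated data, where it recovered 7.1% of 1.1-fold, 78.2% of 1.2-fold and 99.5% of 1.5-fold differences. Of its calls there, 8.19% were false.

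Symbols came from the platform's old, cattle-based annotation. Members and lists were chosen with earlier results of these data known, and 1 Rab gene is not reported here. Genes named were, in each role, the 3 with the lowest p and the 2 brightest, all members past the threshold or of 1 sign on all arrays with an unadjusted p under 0.05, all probes of a named gene, the lowest-p and brightest gene of each list (not all of them printed), and CSN1S1. Other members were added for their role, dye effect or level after their values were seen. A gene with several probes entered medians by its brightest probe. Alternatives covered background, normalisation, filter, flags, dye orientation, variance, the deposited log2 values and leaving out each pair.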

Additional observations from a re-analysis of the deposited data

Results flagged for a closer look

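Among 57 member probes, 2 had an array far from the others of that probe. Chance alone flags about 1 in 20 sets of independent values. The arrays here were paired and differed by dye orientation, so that rate is only a rough guide. COPB1, the beta subunit of the COPI coat, had a log2 ratio of Low over High of 0.83 on the pair 1 array whose Low RNA carried Cy3, whereas the nearest of its other 4 arrays was at 0.14 and the lowest at -0.12. SRP19, of the signal recognition particle, was at -0.23 on the pair 3 array of that orientation, with the nearest other array at -0.038 and the highest at 0.075.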

How the results depend on the processing

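No member passed the threshold under 16 of 18 alternatives. The exceptions were the single dye orientations: with Low in Cy5 alone 5 members were lower and 2 higher in Low, and with Low in Cy3 alone 1 was lower and 1 higher. With Low in Cy5 alone, SEC23A was at 0.30, COPG1 at -0.32 and RAB3A at -0.35, each opposite in sign to its averaged ratio. The median of the Rab genes moved by less than the spread between pairs under every alternative, from -0.015 to 0.019. The other 5 group medians moved by more than that spread under some alternatives. With Low in Cy5 alone they were 0.056 for ER entry, -0.11 for COPI with ARF and 0.081 for cargo receptors, and with Low in Cy3 alone -0.021 for ER entry and 0.026 for COPI with ARF. Over members above background in both genotypes on all 6 arrays they were -0.016 for ER entry, -0.0033 for COPII, -0.029 for COPI with ARF and -0.042 for cargo receptors. ER entry was at -0.012 with loess in each sub-grid. COPI with ARF was at -0.0288 with plain subtraction, -0.0276 with no background correction and -0.0338 with the deposited log2 values. Leaving out each pair in turn gave from -0.014 to 0.039 for COPII, -0.031 to 0.0044 for COPI with ARF, -0.053 to 0.044 for cargo receptors and 0.0028 to 0.058 for SNAREs. The cause of these moves was not tested. The sign held under every alternative that gave a value in 8 of 57 members: SAR1B, SEC13, COPB1, COPG2, LMAN1, SURF4, RAB14 and 1 probe of RAB17. The ARCN1 average of 1.44-fold was 1.47-fold without pair 1, 1.79-fold without pair 2 and 1.14-fold without pair 3. It includes arrays on which High was not above background, so it is not a bound. The number of members with a dye effect past the threshold was between 9 and 17 under 11 alternatives. Over all probes 7 passed the genotype threshold, against 3 with plain subtraction, 4 with no background correction, 1 with a trended and robust variance, 2 without pair 2, 32 without pair 3 and 33 with the pair as a random block (correlation 0.016). With a single orientation, 1026 (Low in Cy5) and 484 (Low in Cy3) passed it. For a probe below background in a genotype the signal gives only a bound.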
